A study of Mus musculus with 24 samples.

Results

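Microglia of progranulin-deficient mice that were sorted for low autofluorescence (GrnKO low) were compared with microglia of wild-type mice that were sorted for high autofluorescence (WT high). The 2 groups were found by the genotype and the lipofuscin bin in the sample titles, with 6 libraries each, so that 12 of the 24 libraries of the series enter the contrast. The comparison asks which transcripts differ with loss of Grn where autofluorescence was low, against wild-type cells in which it was high, and it therefore crosses both factors of the study at once. The other 12 libraries, GrnKO high and WT low, entered the fit to estimate the spread, and their levels are given as a description. All libraries came from 12 mice aged 19 months, 6 of genotype Grn-/- (animals 2, 4, 6, 8, 10 and 12) and 6 of genotype Grn+/+ (animals 1, 3, 5, 7, 9 and 11), on a C57Bl/6J background. All mice, the wild-type controls included, carried an hTfR mu/hu knock-in, an allele of the transferrin receptor gene. Brains were dissociated with the transcription inhibitor actinomycin D and the translation inhibitor anisomycin, and 1000 CD11b+/CD45+ cells per library were sorted by autofluorescence at 488 nm. The sources used here give no limits of the high and low gates. Whether a low cell of a knockout and a low cell of a wild-type mouse had like autofluorescence is therefore not known. Because each library is a sorted pool, fewer cells of a type and less RNA per cell cannot be told apart.

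Progranulin, the product of Grn, is a secreted glycoprotein that is taken up into lysosomes and cut into granulins, and microglia are a major source of it in the brain. In humans its loss causes frontotemporal dementia in carriers of one defective allele and neuronal ceroid lipofuscinosis, a lysosomal storage disease, when both alleles are lost. Lipofuscin is the autofluorescent residue of undegraded lipid and protein that collects in lysosomes with age. Disease-associated microglia are a state described in mouse models of neurodegeneration, in which genes of lipid handling, lysosomes and phagocytosis are raised and homeostatic genes such as the purinergic receptor gene P2ry12 are lowered.

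Sequencing depth was 20.3 to 46.3 M counts in GrnKO low and 20.7 to 42.2 M counts in WT high libraries, and 14090 genes were tested. Some libraries stood apart. Mitochondrial transcripts took 1.46 to 2.39% of counts in GrnKO low and 1.49 to 7.91% in WT high libraries, where the highest value belonged to WT animal 1. Summed markers of choroid plexus and ependyma were 29008 CPM (counts-per-million of the TMM-scaled library size, as edgeR computes them) in the GrnKO low library of animal 8 and 21431 CPM in the WT high library of animal 1, against at most 2044 CPM in the other 10. Erythrocyte markers ranged over 54.5 to 37607 CPM in GrnKO low and 16.8 to 6628 CPM in WT high libraries. Xist was at 701 to 2273 CPM in the 12 libraries labelled male and at 1.01 to 2.21 CPM in the 12 labelled female, which is the opposite of the labels. Sex labels were balanced in both genotypes and served as a covariate, which is the same split under either naming.

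The targeted gene was checked first. Grn ranged over 0.645, 3.74 and 20.3 CPM (lowest, median and highest) in GrnKO low, against 600, 867 and 1477 CPM in WT high libraries. Every knockout library lay far below every wild-type library, as the labels state. The log2 fold change of GrnKO low over WT high was -7.36 (SE 0.942, edgeR adjusted p = 0.000641). Some Grn reads remained in the knockouts, with the highest value in animal 4.

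Beside Grn, few genes separated the 2 groups after adjustment, and most of those were higher in GrnKO low. At an adjusted p under 0.05 (edgeR quasi-likelihood test, Benjamini-Hochberg over all tested genes), 26 genes rose, which is 0.185% of the genes tested, and 4 fell, which is 0.0284%. At an unadjusted p under 0.05 there were 615 higher and 563 lower genes, and the median log2 fold change of all genes was -0.002. The spread between libraries was wide, with a common biological coefficient of variation of 1.08. All 6 libraries of one group lay apart from all 6 of the other for 22 of the 26 higher and 3 of the 4 lower genes, while this held for 0.894% of all tested genes in the higher and 0.319% in the lower direction. The 26 genes divided by their levels in the remaining 12 libraries. For 6 of them (Gpnmb, Fabp5, Gpx3, Lgals3, Hcst and Gm1673) the mean in GrnKO high was above that in WT low, and for the other 20 the mean in WT low was above that in GrnKO high. The 6 are called the knockout set here, and the 20, whose mean was also higher in WT low than in WT high, the low-bin set. Without the libraries high in erythrocyte markers, which leaves 2 GrnKO low libraries, 3 genes were called (Gpnmb, S100a6 and Grn). Without both libraries of WT animal 1, 66 genes were higher and 39 lower, all 30 calls among them, and without the WT high library of animal 3 the count was 19.

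**Figure D1:**
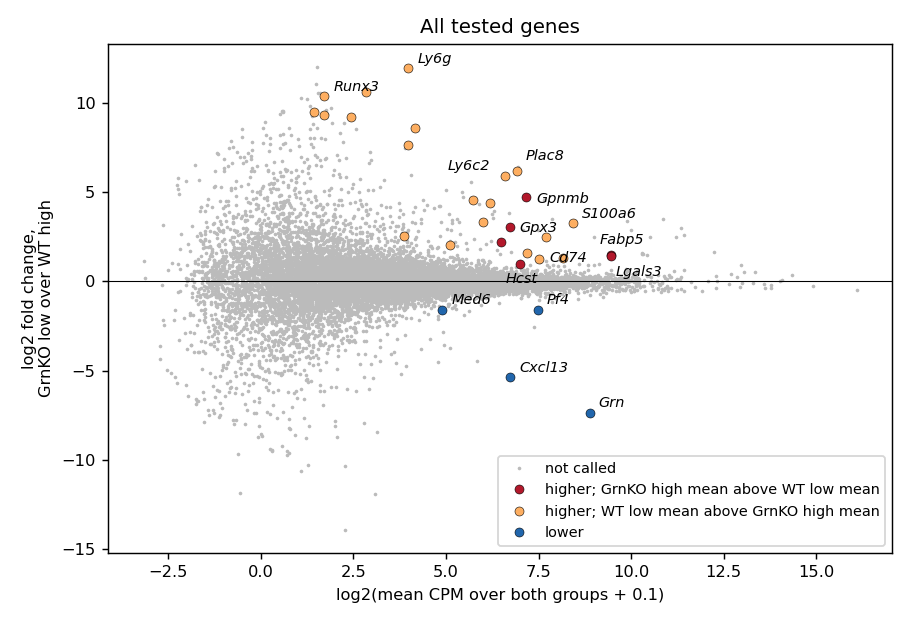
Log2 fold change of GrnKO low over WT high (vertical axis) against the mean level of both groups on a log2 scale (horizontal axis) for the 14090 tested genes. Coloured points are the 30 called genes; the 6 dark red ones had a higher mean in GrnKO high than in WT low, the 20 orange ones the reverse, and the 4 blue ones were lower in GrnKO low.

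Among genes of the knockout set, Gpnmb, which encodes a transmembrane glycoprotein of late endosomes and lysosomes, had the smallest p. It ranged over 169, 244 and 514 CPM in GrnKO low (lowest, median and highest), against 4.85, 8.53 and 29.6 CPM in WT high. No library of one group reached the other. The means were 273 ± 122 CPM in GrnKO low and 10.95 ± 9.32 CPM in WT high (SD, n = 6 each), a log2 fold change of 4.72 (SE 0.399, edgeR adjusted p = 8.14e-08). The mean was 469 CPM in GrnKO high and 1.62 CPM in WT low, so that the WT high cells stood between WT low and both knockout bins. Gpnmb was called in every one of the 12 fits that left out a library and also without the libraries high in erythrocyte markers.

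Fabp5, a fatty acid binding protein, showed the same order of groups with a smaller difference. It ranged over 694, 909 and 1685 CPM in GrnKO low, against 202, 372 and 598 CPM in WT high. The lowest knockout library was above the highest wild-type library. The log2 fold change was 1.48 (SE 0.186, edgeR adjusted p = 0.000128), beside means of 1654 CPM in GrnKO high and 138 CPM in WT low. Lgals3, which encodes galectin-3, a lectin that binds damaged lysosomes, averaged 1007 ± 173 CPM in GrnKO low and 383 ± 145 CPM in WT high (SD, n = 6 each), with a log2 fold change of 1.42 (SE 0.263, edgeR adjusted p = 0.0127). Its groups did not overlap, and the WT high libraries overlapped the WT low range of 114 to 415 CPM. Lgals3 is also expressed by monocytes, whose markers were higher in GrnKO low as given further on; their part in the Lgals3 difference was not tested.

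Gpx3, a secreted glutathione peroxidase that reduces peroxides, ranged over 126, 190 and 247 CPM in GrnKO low, against 1.07, 24.2 and 35.7 CPM in WT high. All knockout libraries were above all wild-type libraries, and the lowest WT high value was that of animal 1. The log2 fold change was 3.07 (SE 0.639, edgeR adjusted p = 0.0397). The call was lost in 11 of the 12 fits that left out one library, with adjusted p up to 0.125, and it held without both libraries of WT animal 1 (adjusted p = 3.56e-05). Hcst, an adaptor of activating immune receptors also known as DAP10, averaged 169 ± 32.4 CPM in GrnKO low and 84.8 ± 23.9 CPM in WT high (SD, n = 6 each). Its log2 fold change was 1.00 (edgeR adjusted p = 0.0232), with 5 of the 6 GrnKO low libraries above every WT high library. The mean of Hcst was 125 CPM in GrnKO high and 82.3 CPM in WT low. The part of leukocytes, whose markers are given further on, in the Hcst difference was not tested. Gm1673, a gene with no role named here, averaged 141 ± 29.3 CPM in GrnKO low and 37.7 ± 18.4 CPM in WT high (SD, n = 6 each). Its log2 fold change was 2.18 (edgeR adjusted p = 0.04). The mean of Gm1673 was 195 CPM in GrnKO high and 22.7 CPM in WT low, where animal 1 reached 90.9 CPM. Both calls were lost in some of the fits that left out a library, 6 of 12 for Hcst and 8 of 12 for Gm1673.

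**Figure D2:**
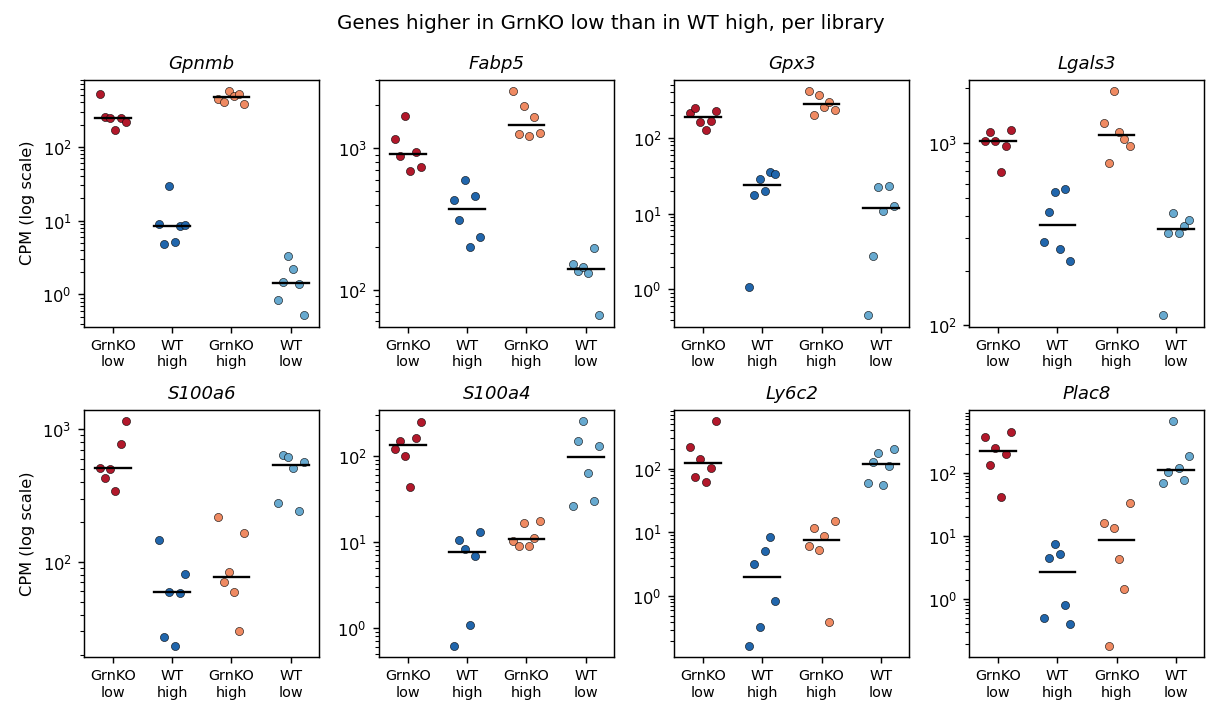
CPM per library on log axes for 8 genes higher in GrnKO low than in WT high, with the 4 groups in columns; each point is a library and each bar the group's median. In the upper row both knockout bins were high, with Gpnmb at 169 to 514 CPM in GrnKO low and 4.85 to 29.6 CPM in WT high; in the lower row both low bins were high, with S100a6 at 342 to 1152 CPM in GrnKO low and 23.4 to 147 CPM in WT high.

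The other genes of the disease-associated state showed smaller differences or none that passed the test. Of 34 tested genes on the list, 4 rose (Gpnmb, Fabp5, Lgals3 and Cd74) and none fell, while 0.185% of all tested genes rose. The list had 27 positive log2 fold changes and a median of 0.27 against -0.002 over all genes. Without both libraries of WT animal 1, 4 rose and 1 fell (Ccl6, a chemokine). Cst7, which encodes cystatin F, an inhibitor of cysteine cathepsins, ranged over 607, 728 and 884 CPM in GrnKO low, against 215, 375 and 638 CPM in WT high. Only the lowest knockout library lay within the wild-type range, and the log2 fold change of 1.00 had a 95% interval of 0.48 to 1.51 and an edgeR adjusted p of 0.0867. Apoe, the lipid carrier, averaged 16988 ± 3866 CPM in GrnKO low and 16427 ± 5691 CPM in WT high (SD, n = 6 each). Its log2 fold change of 0.05 had an interval of -0.43 to 0.52, beside means of 29390 CPM in GrnKO high and 5709 CPM in WT low. Clec7a, the beta-glucan receptor dectin-1, had a log2 fold change of 0.03 (-0.37 to 0.44). Igf1, a growth factor, had 0.50 (0.06 to 0.95), Spp1, the secreted phosphoprotein osteopontin, -0.50 (-1.09 to 0.08) and Lpl, lipoprotein lipase, -0.68 (-1.26 to -0.10), and none of these was called. The summed level of the list was 94810 to 130498 CPM in GrnKO low (median 126189) and 89645 to 128209 CPM in WT high (median 93267). These ranges overlapped although the median was higher in GrnKO low. The lowest GrnKO low sum was that of animal 8, and the highest WT high sum that of animal 9. The sum was 143640 to 197840 CPM in GrnKO high and 46774 to 69928 CPM in WT low.

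**Figure D3:**
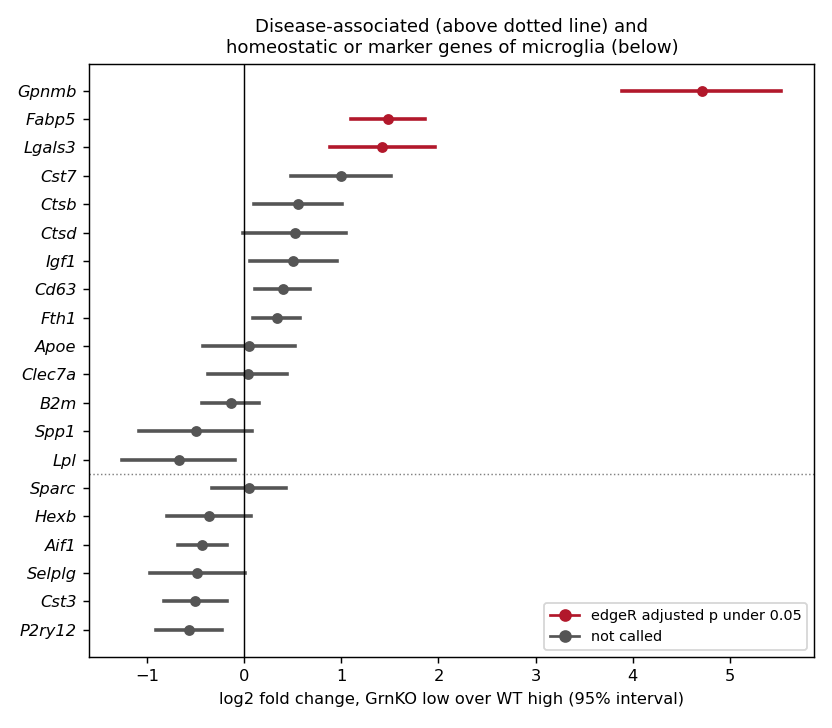
Log2 fold change of GrnKO low over WT high with its 95% interval for genes of the disease-associated list (above the dotted line) and for homeostatic or marker genes of microglia (below). Gpnmb, Fabp5 and Lgals3 (red) were called, Apoe lay at 0.05 (-0.43 to 0.52), and P2ry12 at -0.57 (-0.92 to -0.23) was not called.

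No gene of the lysosomal lists was called. Of 13 tested cathepsins, 36 glycosidases and other hydrolases, 25 lysosomal membrane proteins and 18 V-ATPase subunits, none was called in either direction, and the medians were 0.01, 0.03, 0.06 and 0.27. Ctsb, a cysteine cathepsin, averaged 10127 ± 2010 CPM in GrnKO low and 6904 ± 2074 CPM in WT high (SD, n = 6 each; log2 fold change 0.55, interval 0.09 to 1.00). Of the cathepsins, 7 log2 fold changes were positive and 6 negative. Ctso, another cysteine cathepsin, was at 48.6 to 79.7 CPM in GrnKO low and 89.7 to 156 CPM in WT high, without overlap (log2 fold change -0.63, interval -1.03 to -0.22, edgeR adjusted p = 0.202). Ctss, cathepsin S, had -0.39 (-0.77 to -0.01) and Lgmn, the asparaginyl endopeptidase legumain, -0.39 (-0.82 to 0.04). Ctsd, the aspartyl protease cathepsin D, had a log2 fold change of 0.52 (-0.02 to 1.05), and Cd63, a tetraspanin of late endosomes, 0.40 (0.11 to 0.68, edgeR adjusted p = 0.284). Lamp1, a structural protein of the lysosomal membrane, had 0.15 (-0.20 to 0.50) and Cd68, a macrophage lysosomal glycoprotein, 0.12 (-0.34 to 0.59). Atp6v0c, a subunit of the proton pump that acidifies lysosomes, lay at 1214 to 1546 CPM in GrnKO low and 452 to 1200 CPM in WT high. Those ranges did not overlap, but the gene was not called (log2 fold change 0.57, edgeR adjusted p = 0.283). Summed cathepsin levels were 29973 to 48830 CPM in GrnKO low and 20131 to 46305 CPM in WT high, the lowest being WT animal 1, beside 54114 to 66030 CPM in GrnKO high and 12404 to 31091 CPM in WT low. Of the remaining lists of metabolism and stress, autophagy (27 tested), iron handling (16), sterol and fatty acid synthesis (22), nuclear oxidative phosphorylation (41), ribosomal proteins (34), secretory folding (26), glycolysis (22), cell cycle (26), immediate-early genes (28) and the type I interferon response (28) had no call. Positive log2 fold changes made up 22 of 26 in the cell cycle (median 0.77), 30 of 34 in the ribosomal protein (median 0.16) and 18 of 22 in the glycolysis list (median 0.43). Negative ones made up 21 of 28 in the interferon (median -0.34) and 20 of 26 in the secretory folding list (median -0.12). The other 5 of these lists had medians between -0.11 and 0.12. Among them, the nuclear oxidative phosphorylation median was -0.01, and it was 0.32 without both libraries of WT animal 1. All 13 tested mitochondrially encoded genes had negative log2 fold changes and none was called (median -0.44), and without the libraries of WT animal 1 this median was 0.03.

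Homeostatic genes mostly had negative fold changes. Of 23 tested, none was called, 19 log2 fold changes were negative and the median was -0.32. P2ry12, the purinergic receptor that guides process movement, ranged over 1028, 1461 and 1659 CPM in GrnKO low, against 1412, 2212 and 2881 CPM in WT high. Its log2 fold change of -0.57 (-0.92 to -0.23) had an edgeR adjusted p of 0.161. Cst3, which encodes cystatin C, averaged 57888 ± 12767 CPM in GrnKO low and 81795 ± 12538 CPM in WT high (SD, n = 6 each; log2 fold change -0.51, edgeR adjusted p = 0.198). Cst3 makes up most of the summed level of the list, which was 63995 to 101003 CPM in GrnKO low and 102577 to 129597 CPM in WT high, and without Cst3 the sum was 20737 to 25890 CPM in GrnKO low and 17830 to 40733 CPM in WT high. The lowest WT high sum without Cst3 was that of animal 1. With Cst3, the sum was 84702 to 117486 CPM in GrnKO high and 51096 to 94506 CPM in WT low. Without Cst3, it was 27342 to 36352 CPM in GrnKO high and 14735 to 33838 CPM in WT low. Means in GrnKO high and WT low were 71159 and 54498 CPM for Cst3, and 1957 and 1825 CPM for P2ry12. When both libraries of WT animal 1 were left out, P2ry12 fell (log2 fold change -0.65, edgeR adjusted p = 0.0253), as did Siglech, a sialic acid binding receptor of microglia (-0.55, adjusted p = 0.032), and Slc2a5, the fructose transporter (-0.83, adjusted p = 0.0335). Aif1, which encodes the microglial protein Iba1, was at 1121 to 1546 CPM in GrnKO low and 1638 to 2349 CPM in WT high. These ranges did not overlap, and the edgeR adjusted p was 0.145. The mean of Aif1 was 1947 CPM in GrnKO high and 1181 CPM in WT low. Summed microglia markers were 17669 to 22002 CPM in GrnKO low and 15526 to 34756 CPM in WT high, so microglia markers were abundant in both groups.

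The low-bin set included 4 genes of calcium-binding S100 proteins. S100a6 ranged over 342, 508 and 1152 CPM in GrnKO low, against 23.4, 59.3 and 147 CPM in WT high. Its log2 fold change was 3.24 (SE 0.48, edgeR adjusted p = 0.0015), and its mean was 104 CPM in GrnKO high and 479 CPM in WT low. The low bins of both genotypes were thus high and the high bins of both were low. S100a4 ranged over 43.4, 136 and 253 CPM in GrnKO low, against 0.621, 7.63 and 12.96 CPM in WT high (log2 fold change 4.36, SE 0.654, edgeR adjusted p = 0.0015). S100a11 and S100a10, the binding partner of annexin A2, had log2 fold changes of 2.46 and 1.60 (edgeR adjusted p = 0.0141 and 0.0338). Anxa1, a phospholipid-binding annexin, had 4.54 (adjusted p = 0.0141). Together with Lgals3, these made 6 of the 27 tested tetraspanin, galectin, annexin and S100 genes, with none lower. Of all tested genes, 0.185% were called higher. S100a4 is also among the called monocyte markers given further on. Without both libraries of WT animal 1 the list had 9 higher and 1 lower, the tetraspanin gene Cd81 (log2 fold change -0.45, edgeR adjusted p = 0.0144). G0s2, an inhibitor of triglyceride lipolysis, averaged 116 ± 52.5 CPM in GrnKO low and 11.4 ± 7.94 CPM in WT high (SD, n = 6 each; edgeR adjusted p = 0.0232). Msrb1, a methionine sulfoxide reductase, averaged 56.2 ± 21.3 CPM in GrnKO low and 13.2 ± 3.80 CPM in WT high (SD, n = 6 each; log2 fold change 2.06, edgeR adjusted p = 0.00366), and Lsp1, an actin-binding protein of leukocytes, 403 ± 155 CPM in GrnKO low and 165 ± 56.8 CPM in WT high (log2 fold change 1.29, edgeR adjusted p = 0.0332). Plp2, a membrane protein of the proteolipid family, had a log2 fold change of 2.56 (edgeR adjusted p = 0.0397). In the 12 fits that left out one library, S100a6, S100a4, Anxa1 and Msrb1 were called each time. S100a11 lost its call without WT high animal 3 (adjusted p = 0.0601), and G0s2, S100a10, Lsp1 and Plp2 lost theirs in 5, 7, 9 and 11 of the 12 fits, with adjusted p up to 0.082, 0.126, 0.135 and 0.125.

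Several other genes of the low-bin set are markers of blood leukocytes. Ly6c2, a surface protein of inflammatory monocytes that is nearly identical to Ly6c1 and so uncertain in its counting, ranged over 60.7, 120 and 553 CPM in GrnKO low, against 0.170, 2.04 and 8.43 CPM in WT high (log2 fold change 5.91, SE 0.913, edgeR adjusted p = 0.00366). Plac8, a gene high in monocytes, averaged 238 ± 147 CPM in GrnKO low and 3.15 ± 2.98 CPM in WT high (SD, n = 6 each; log2 fold change 6.21, edgeR adjusted p = 0.0141). Trem3, an activating receptor of myeloid cells in the same family as Trem1, had 3.01 to 56.2 CPM in GrnKO low and 0 to 0.715 CPM in WT high. Trem1 had 0.140 to 29.95 CPM in GrnKO low and 0 to 0.048 CPM in WT high. Of these 4 genes, Trem1 lost its call in 10 of the 12 fits that left out one library (adjusted p up to 0.125), and the others kept it. In each of the 4, all knockout libraries were above all wild-type ones. Ly6g, the defining surface marker of neutrophils, had 6347 counts over the GrnKO low libraries and 2 over the WT high libraries, a ratio per depth of 3407 (counting interval 943 to 28139), and the lowest GrnKO low library had 0.047 CPM. Its call (edgeR adjusted p = 0.0141) was lost in 3 of the 12 fits, without WT high animals 3, 7 and 11 (adjusted p up to 0.105), and with limma-voom, as was that of Plac8. Runx3, a transcription factor of T and natural killer cells and some phagocytes, had 0 to 21.0 CPM in GrnKO low and no count in any WT high library, and was at least 351-fold higher in GrnKO low against a floor of 3 counts over the group. Ccdc180, Gpr141, an orphan receptor gene, and Gm5150 had 1 count each over the WT high libraries and 1226, 882 and 2919 counts over the GrnKO low libraries. The counting interval of Ly6g and the 351-fold bound of Runx3 rest on counts pooled over each group, so they leave out the spread between animals. They also take reads as independent, which reads of one PCR product are not. Ly6g reached 69.4 CPM in the highest GrnKO low library. In the edgeR fit, which takes in the spread between libraries, its log2 fold change was 11.9 with an interval of 7.27 to 16.6.

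Markers of monocytes, neutrophils and T and NK cells had mostly positive log2 fold changes, few of them called. Of 12 tested monocyte markers 4 rose, S100a4 among them, and none fell (median log2 fold change 3.86), while 0.185% of all tested genes rose. The summed level of the monocyte markers was 700 to 2805 CPM in GrnKO low and 38.0 to 126 CPM in WT high. Neutrophil markers had 1 of 11 called (median 3.52), with sums of 4345 to 33080 CPM in GrnKO low and 18.01 to 2868 CPM in WT high. Markers of T and NK cells had none of 21 called, although all 21 log2 fold changes were positive (median 3.51) and the sums were 567 to 1552 CPM in GrnKO low and 100 to 232 CPM in WT high. Trbc2, a T cell receptor constant gene, had a log2 fold change of 3.79 (edgeR adjusted p = 0.0525), and Cd3g, a subunit of the CD3 complex, 4.34 (adjusted p = 0.0828). The WT low sums were 360 to 1918 CPM for monocyte, 1665 to 22704 CPM for neutrophil and 129 to 781 CPM for T and NK markers, and the GrnKO high sums 45.9 to 302, 26.9 to 3576 and 74.3 to 350 CPM. No tested marker of these 3 lists was at 0 in all WT high libraries. The filter on low counts (filterByExpr) keeps a gene that is high enough in any group, so markers near 0 in WT high could enter through the low bins. The signs and medians of the tested markers may therefore be partly set by the filter, and they are given as description. The sums cover every listed gene, also those below the filter. The sums of monocyte, neutrophil and T and NK markers in GrnKO low did not overlap those in WT high, and the part of these cells in the S100 and leukocyte gene results was not tested.

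**Figure D4:**
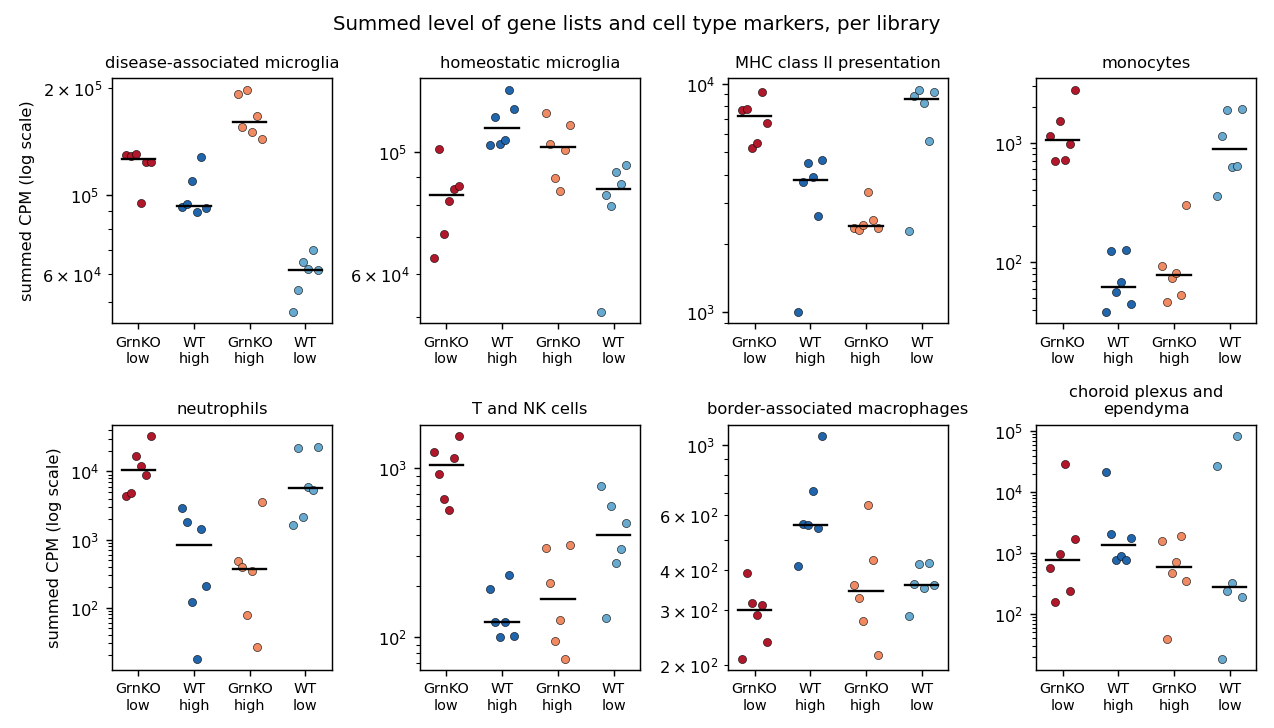
Summed CPM per library on log axes for 8 gene lists, with the 4 groups in columns; each point is a library and each bar the group's median. Monocyte marker sums were 700 to 2805 CPM in GrnKO low and 38.0 to 126 CPM in WT high. The disease-associated sums overlapped between those groups, with medians of 126189 CPM in GrnKO low and 93267 CPM in WT high.

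Of 10 tested genes of MHC class II presentation, 1 was called; 6 log2 fold changes were positive and 4 negative (median 0.67). Cd74, the invariant chain of MHC class II, ranged over 148, 254 and 331 CPM in GrnKO low, against 79.1, 98.3 and 153 CPM in WT high. The lowest GrnKO low library lay just within the WT high range, and the other 5 were above every WT high library (log2 fold change 1.27, SE 0.224, edgeR adjusted p = 0.00806). Its mean was 62.4 CPM in GrnKO high and 268 CPM in WT low. Cd74 was the called gene, and the summed level of the list was 5221 to 9187 CPM in GrnKO low and 1003 to 4637 CPM in WT high without overlap. The lowest WT high sum was that of animal 1. The sum was 2299 to 3344 CPM in GrnKO high and 2276 to 9412 CPM in WT low. Its median was 7187 CPM in GrnKO low and 8524 CPM in WT low. Cd74 was called in all 12 fits that left out one library. Without both libraries of WT animal 1, H2-Aa, H2-Ab1 and H2-Eb1, the chains of the class II molecule, rose as well. Their log2 fold changes were 1.28, 1.24 and 1.34 (edgeR adjusted p = 0.00911, 0.0103 and 0.0174). MHC class I genes had no call among 18 tested. B cell markers, which share class II genes with microglia and other presenting cells, were summed at 635 to 16878 CPM in GrnKO low and 222 to 2693 CPM in WT high, with none of 10 called; their part in the class II result was not tested.

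The 4 genes that fell in GrnKO low were Grn itself, Cxcl13, Pf4 and Med6. Cxcl13, a chemokine that attracts B cells, ranged over 0.217, 2.89 and 15.4 CPM in GrnKO low, against 91.9, 164 and 389 CPM in WT high. Every knockout library was below every wild-type library (log2 fold change -5.36, SE 0.961, edgeR adjusted p = 0.0139). Its level was also low in GrnKO high (5.28 to 22.8 CPM) and spread over 5.47 to 473 CPM in WT low. The call was lost without GrnKO low animal 12 (adjusted p = 0.0539) and with limma-voom. Pf4, the chemokine also called Cxcl4, averaged 84.8 ± 37.6 CPM in GrnKO low and 273 ± 153 CPM in WT high (SD, n = 6 each; log2 fold change -1.60, edgeR adjusted p = 0.0385), with 4 of 6 knockout libraries below every wild-type one. Its mean was 117 CPM in GrnKO high and 119 CPM in WT low, so WT high had the highest mean of the 4 groups. Pf4 is also a marker of border-associated macrophages, the macrophages of meninges and vessels. Of 13 tested markers of those cells 1 fell and none rose (median -1.48), and their sum was 210 to 392 CPM in GrnKO low and 412 to 1064 CPM in WT high; their part in the Pf4 result was not tested. Med6, a subunit of the Mediator complex, averaged 14.8 ± 6.60 CPM in GrnKO low and 44.5 ± 17.4 CPM in WT high (SD, n = 6 each; log2 fold change -1.58, edgeR adjusted p = 0.0373). Pf4 lost its call in 9 and Med6 in 8 of the 12 fits that left out one library, with adjusted p up to 0.117 and 0.101. Of 27 tested chemokine and cytokine genes, Cxcl13 and Pf4 fell and none rose (median -0.40), while 0.0284% of all tested genes fell. Without both libraries of WT animal 1, Ccl6 and Ccl7 fell too, with log2 fold changes of -0.56 and -3.86 (edgeR adjusted p = 0.0323 and 0.0261). In that fit Ccl5, a chemokine of T and NK cells, rose (log2 fold change 1.86, edgeR adjusted p = 0.042).

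**Figure D5:**
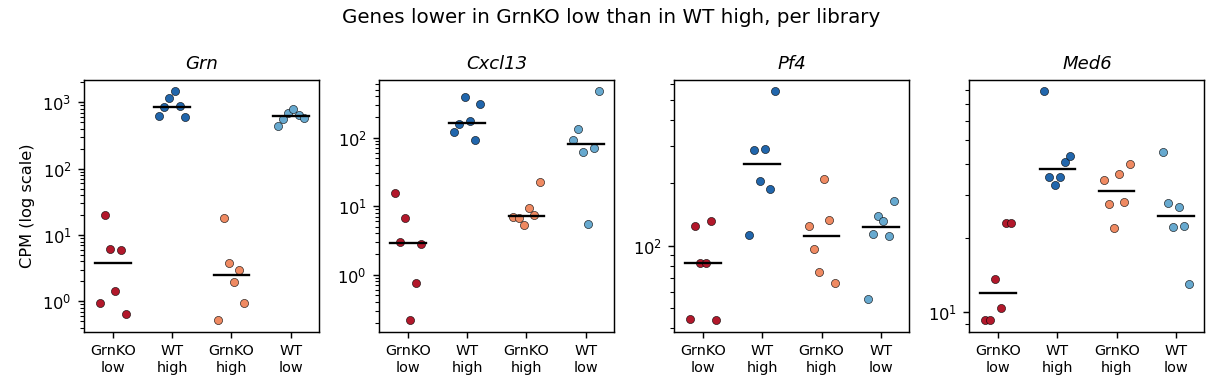
CPM per library on log axes for the 4 genes lower in GrnKO low than in WT high, with the 4 groups in columns; each point is a library and each bar the group's median. Grn was at 0.645 to 20.3 CPM in GrnKO low and 600 to 1477 CPM in WT high, and Cxcl13 at 0.217 to 15.4 CPM in GrnKO low and 91.9 to 389 CPM in WT high.

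Of the remaining lists, lipid efflux and lipid droplets (25 tested) had Fabp5 called higher, antioxidant enzymes (25) Gpx3, microglia identity regulators (28) Runx3, and the progranulin partners and NCL genes (20) Grn called lower. Complement (16), phagocytic and Fc receptors (27) and the Ms4a family (10) had no call. Without both libraries of WT animal 1, the antioxidant enzymes Gsr and Mgst1 rose as well (log2 fold changes 2.08 and 2.08, edgeR adjusted p = 0.0262 and 0.0179), and Elmo1, an engulfment gene of the phagocytic list, fell (-0.66, adjusted p = 0.037). Gsr is also on the monocyte marker list, and the part of monocytes in its difference was not tested. With all libraries in the fit, markers of astrocytes (13 tested), oligodendrocytes (13) and neurons (8) had no call. Neither had markers of endothelial and mural cells (14), choroid plexus and ependyma (14) or erythrocytes (5). Log2 fold changes were negative for 11 of 13 astrocyte markers (median -1.47). They were positive for 5 of 5 erythrocyte, 12 of 14 choroid plexus, 6 of 8 neuron, 8 of 13 oligodendrocyte and 8 of 14 endothelial and mural markers. Astrocyte sums were 216 to 465 CPM in GrnKO low and 324 to 2539 CPM in WT high. Without both libraries of WT animal 1, Dcn of the endothelial and mural list fell (log2 fold change -8.5, edgeR adjusted p = 0.0481).

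Promoters were searched for the motif TCACGTG, which the MiT/TFE lysosomal transcription factors are known to bind, and for the related TCATGTG, on both strands, in windows of the RefSeq table (build GRCm38.p6, a different build from the GRCm39 of the counts). Of 10097 tested genes with a window, 7.0% held TCACGTG and 2.8% TCATGTG. Of 19 called higher genes with a window 1 held TCACGTG (S100a6) and none TCATGTG, and of 4 called lower genes 1 held TCATGTG (Grn), so the higher genes had no larger share than all tested genes. These 2 windows are printed because they were the called ones with a match; the capitals mark the motif or its reverse complement. The first is chr3:90612644-90612943 on the plus strand, with the match 14 bases after the gene start, and the second chr11:102430257-102430556 on the plus strand, with the match at -210.
S100a6: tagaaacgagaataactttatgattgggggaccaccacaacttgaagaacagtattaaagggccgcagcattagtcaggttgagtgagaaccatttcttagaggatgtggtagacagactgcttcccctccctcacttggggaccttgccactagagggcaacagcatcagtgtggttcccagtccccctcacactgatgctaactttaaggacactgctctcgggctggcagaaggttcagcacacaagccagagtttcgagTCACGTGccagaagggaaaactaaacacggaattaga
Grn: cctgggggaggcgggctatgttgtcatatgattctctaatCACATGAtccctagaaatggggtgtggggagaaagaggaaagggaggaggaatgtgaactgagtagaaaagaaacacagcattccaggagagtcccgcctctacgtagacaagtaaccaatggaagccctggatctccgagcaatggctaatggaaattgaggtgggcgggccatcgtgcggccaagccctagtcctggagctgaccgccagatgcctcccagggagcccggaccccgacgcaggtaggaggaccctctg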

How the data were processed

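Sorted microglia of 4 groups with 6 libraries each were profiled by RNA sequencing with a SMART-Seq 3' kit and single-end reads, per the labels' protocols. The deposited table holds estimated counts per gene and the authors also deposited library sizes and a ratio scale (normalization factors); per the submitters' processing notes the build was GRCm39 and the tools were edgeR 4.6.2 under R 4.5.1, Salmon 1.10.1 and STAR 2.7.9a. Of values between 0 and 10, 8.28% were not whole, and estimated counts were rounded here.

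Of 56980 genes, 42890 were removed by filterByExpr. All 24 libraries were fitted with edgeR 4.0.16 (TMM, group plus sex label, quasi-likelihood, robust), and GrnKO low against WT high was tested. GrnKO and WT share no animal, so the contrast is unpaired; deviations of the 2 libraries of an animal correlated at a median of 0.106 over 12 animals (6 above 0.1). No 2 libraries were identical. The labels name separate animals as replicates. Members and gene lists were chosen with earlier results of these data known. Genes named were Grn, the called genes with the largest change and at least 10 CPM, up to 3 of each list by p, the most abundant of 4 lists and 14 genes given by name; 10 others (Lsp1, S100a11, Plp2, Ccdc180, S100a10, Gpr141, Hcst, Gm1673, Msrb1, Gm5150), and the genes called only without WT animal 1, were chosen after their values were seen. Alternatives were DESeq2 1.42.0, limma 3.58.1, other filters, scalings and left-out libraries. The test was checked on simulated counts. One called gene is not reported here.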

Additional observations from a re-analysis of the deposited data

Results flagged for a closer look

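In 200 group readings of the genes and list sums given, 29 single libraries lay far from the other 5 of their group. The limit used, Dixon's 95% critical value, flags about 1 in 20 groups by chance, and the readings share libraries.

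The WT high library of animal 1 stood apart most often. It had 7.91% mitochondrial counts and summed 69320 CPM of mitochondrially encoded and 41887 CPM of nuclear oxidative phosphorylation genes, the highest of its group. It also had the highest sums for choroid plexus (21431 CPM), astrocyte (2539 CPM) and sterol synthesis genes (703 CPM), the lowest for cathepsins (20131 CPM) and for tetraspanins, galectins and annexins (13450 CPM), and the highest Med6 (79.1 CPM) and Hpse, the gene of heparanase (22.6 CPM).

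Among GrnKO low libraries, animal 8 had the highest choroid plexus sum (29008 CPM) and the lowest disease-associated sum (94810 CPM). Animal 12 had the highest Ly6c2 (553 CPM), Lsp1 (714 CPM) and S100a11 (760 CPM). Animal 2 had the highest Gpnmb (514 CPM), Runx3 (21.0 CPM) and B cell marker sum (16878 CPM), and animal 4 the highest Grn (20.3 CPM) and complement sum (23945 CPM).

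Among the other WT high libraries, animal 5 had the highest Gpnmb (29.6 CPM), animal 9 the highest Trem3 (0.715 CPM) and the lowest sum of microglia identity regulators (1880 CPM), and animal 11 the highest Ctso, a cysteine cathepsin gene (156 CPM), and Ms4a sum (1130 CPM). Single counts or pairs of counts set the highest Ly6g in animal 11 (0.048 CPM), Ccdc180 in animal 7 (0.0321 CPM), Gpr141 in animal 9 (0.0255 CPM) and Gm5150 in animal 3 (0.0324 CPM).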

How the results depend on the processing

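The count of 30 called genes was 32, 37 and 33 with RLE scaling, library size alone and the deposited sizes and factors, 43 with a stricter filter, 31 without the sex label, 38 without robust estimation and 29 at a change of at least 2-fold. It was 409 with no filter, 361 with DESeq2, 124 with limma-voom, 133 with limma-voom and the animal as a random replicate block (consensus correlation 0.0872), and 46 with the 12 libraries alone. It was 103 without libraries high in choroid plexus markers, 105 without those over 5% mitochondrial counts and 3 without those high in erythrocyte markers. Leaving out one library gave 19 to 39 calls, and 17 of the 30 genes were called in all 12 such fits. No called gene changed direction in any setting; 11 named genes that were not called did when libraries were left out, Apoe, Clec7a and Sparc among them. Limma-voom, with and without the block, lost Cxcl13, Ly6g and Plac8. The cause of these changes was not tested. At this spread between libraries, a difference that was not called is not shown to be absent.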
